A study of Caenorhabditis elegans with 2 samples.

Results

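The genes described here are 57 Caenorhabditis elegans genes of anchor cell and vulval development, out of 19973 nuclear protein-coding genes in the annotation. They were taken by name as regulators of the anchor cell, the signalling pathways between anchor cell and vulva, and the surface, matrix and cytoskeletal genes of anchor cell invasion, and all 57 were found by name. Chromatin immunoprecipitation and sequencing (ChIP-seq) of NHR-67 was performed on whole L3 larvae of both sexes, in 2 biological replicates of 1 group with no second condition. The strain, OP373, carries unc-119(tm4063) on chromosome III and wgIs373, an integrated transgene with GFP-tagged nhr-67. Both replicates share this genotype, so the tagged protein was read from an added copy of the gene. The antibody is labelled only by the target's name, both replicates were called against 1 shared control that was not analysed here, and the number of reads behind each list is unknown.

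The anchor cell is a single cell of the hermaphrodite somatic gonad that organises the vulva. It secretes the EGF-like ligand LIN-3, which acts through the receptor LET-23 and the Ras pathway in the underlying vulval precursor cells, while Notch and Wnt signals refine their fates. It then breaches the basement membranes between gonad and epidermis, guided in part by netrin. NHR-67, a nuclear receptor of the tailless family, acts in the anchor cell with EGL-43, FOS-1 and HLH-2 to hold it out of the cell cycle and make it invasive. The samples are whole larvae of both sexes, and males have no anchor cell, so binding in few cells and weak binding in many cannot be told apart.

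For each gene, a window ran from 5 kb upstream of its start to its end, introns included, and a region was counted where its summit lay in that window. The deposited lists held 30000 pooled regions, 30000 regions in replicate 1, 19385 in replicate 2 and 137 optimal peaks, the authors' final list. The pooled list is labelled as peaks and background, so a count of its regions is not a count of bound sites. Ranks run from 1, the highest signal of a list, and a region is called strong where it is among the strongest 10% of its list. That limit is rank 3000 in the pooled and replicate 1 lists and rank 1938 in replicate 2. Whether the lists of 30000 were cut at that number is not known, and the limit depends on list length. Signal is the value the authors deposited for each region, in a unit not given in the sources used here. Its scale differs between lists, so each list's values stand on their own. Each gene was set beside the 300 other genes nearest to it in window length. Of the 19916 protein-coding genes outside the list, 21.6% had a strong pooled region in the window, 21.8% a strong replicate 1 region and 14.4% a strong replicate 2 region.

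Strong regions of the pooled list and of both replicates coincided at 2 of the 57 genes, lin-7 and pat-3, and at 1.99% of other genes. The DNA under the summits of their pooled regions is printed here because they are the strongest pooled regions in the 57 windows. It is the plus strand of ce11 (the WBcel235 sequence of RefSeq), within 50 bp of the summit, with annotated untranslated bases left out. Capitals mark CTGCGC or its reverse complement, a hexamer chosen with its values in these data known.
lin-7, chrII:14349682-14349737: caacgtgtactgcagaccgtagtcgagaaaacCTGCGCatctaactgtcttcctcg
pat-3, chrIII:3916797-3916897: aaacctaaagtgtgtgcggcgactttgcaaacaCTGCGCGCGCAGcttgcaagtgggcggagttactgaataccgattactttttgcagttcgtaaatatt

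The next sequences are summits with AAGTCA, the half-site known for tailless-family receptors, on either strand. They are shown for the anchor cell regulator egl-43, for the Notch ligand gene dsl-1, which has 2 sites, for him-4, the only strong pooled region with the half-site in these windows, and for a strong replicate 2 region at the Hox gene lin-39. Build and strand are as above, and capitals mark AAGTCA or its reverse complement TGACTT.
egl-43, chrII:9952917-9953017: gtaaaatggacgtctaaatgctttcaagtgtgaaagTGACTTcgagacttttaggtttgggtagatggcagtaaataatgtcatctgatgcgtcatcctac
dsl-1, chrIV:1212127-1212227: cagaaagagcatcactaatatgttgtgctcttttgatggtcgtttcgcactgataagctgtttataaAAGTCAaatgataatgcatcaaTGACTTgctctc
him-4, chrX:9738167-9738267: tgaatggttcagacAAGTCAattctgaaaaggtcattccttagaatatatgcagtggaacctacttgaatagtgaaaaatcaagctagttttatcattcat
lin-39, chrIII:7538382-7538482: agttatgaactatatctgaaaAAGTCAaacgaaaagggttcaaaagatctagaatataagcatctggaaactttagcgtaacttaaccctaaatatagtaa

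Of the 6 anchor cell regulator genes, fos-1 alone had a strong pooled region, where genes of like window length would give 1.7 of 6. In replicate 1 it was again fos-1 alone, where they would give 1.72, and in replicate 2 there were 3, fos-1, egl-43 and hda-1, where they would give 1.18. nhr-67 itself had 0 regions in its 10044 bp window in the pooled list, in replicate 1 and in replicate 2. Of the 300 genes of like window length, 2 (0.667%) had none in all 3 lists. The nearest pooled summits lay 21415 bp upstream of the nhr-67 start, at rank 3136, and 18797 bp downstream of it, at rank 22221. Because the strain carries an added copy of nhr-67, reads of the native locus and of that copy cannot be told apart, and the effect of the copy on the calls here was not tested.

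fos-1 had the most pooled regions of the 57 genes, while mig-10 had the most in replicate 1, with 14, and him-4 and ida-1 had as many as fos-1 in replicate 2. FOS-1 is the Fos transcription factor that the anchor cell needs to breach the basement membrane. Its 17487 bp window held 15 pooled regions, 11 in replicate 1 and 8 in replicate 2, against medians of 5, 5 and 3 in genes of like window length. Of those 300 genes, 1 (0.333%) had as many pooled regions, 5.0% had as many in replicate 1 and 3.33% had as many in replicate 2. Its strongest pooled regions lay in introns 391 and 1255 bp from its start, with signals of 16.1 and 14.5 at ranks 1104 and 1733. Both were strong in replicate 1 as well, with signals of 17.7 and 15.8 at ranks 360 and 631, and neither overlapped a replicate 2 region. In replicate 2 the strong regions lay elsewhere in the introns, 8056 bp from the start with a signal of 8.74 at rank 291 and 2257 bp from it with 6.37 at rank 1304. The nearest strong summits of the replicates were 1002 bp apart, so fos-1 had many listed regions in both replicates without a shared strong summit. Its pooled regions ran down to rank 29388 of 30000, with a signal of 5.33.

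At egl-43, which encodes an EVI1-type zinc finger factor, the strongest pooled region had a signal of 11.3 at rank 4847, 2218 bp upstream, and held the half-site printed above. Replicate 1 had no strong region there, its best ranking 9144 with a signal of 7.83. Replicate 2 had a strong region 393 bp upstream with a signal of 6.93 at rank 904, which overlapped no pooled or replicate 1 region.

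hlh-2, the E-protein gene, had 1 pooled region, 2523 bp upstream at rank 10369, 3 regions in replicate 1 and 0 in replicate 2. nhr-25, the Ftz-F1 type nuclear receptor gene, had its best pooled region 3703 bp upstream at rank 4067, with best ranks of 4551 in replicate 1 and 6717 in replicate 2. hda-1, a class I histone deacetylase gene, ranked best at 5751 in the pooled list and 11873 in replicate 1, and its strong replicate 2 region, at rank 1330, lay nearer to the start of ril-1. For cki-1, the cyclin-dependent kinase inhibitor gene through which the anchor cell stays arrested, the best ranks were 8914, 12598 and 4346 in the pooled, replicate 1 and replicate 2 lists. Its short window of 5866 bp held 3, 4 and 5 regions in those lists. A count of 5 or more in replicate 2 occurred in 0.333% of genes of like window length, and none of the 5 regions was strong. Below the best of them, the ranks ran from 9539 to 18037 of 19385. The pooled and replicate 1 counts were reached more often, the pooled count of 3 by 27.7% of genes of like window length.

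**Figure D1:**
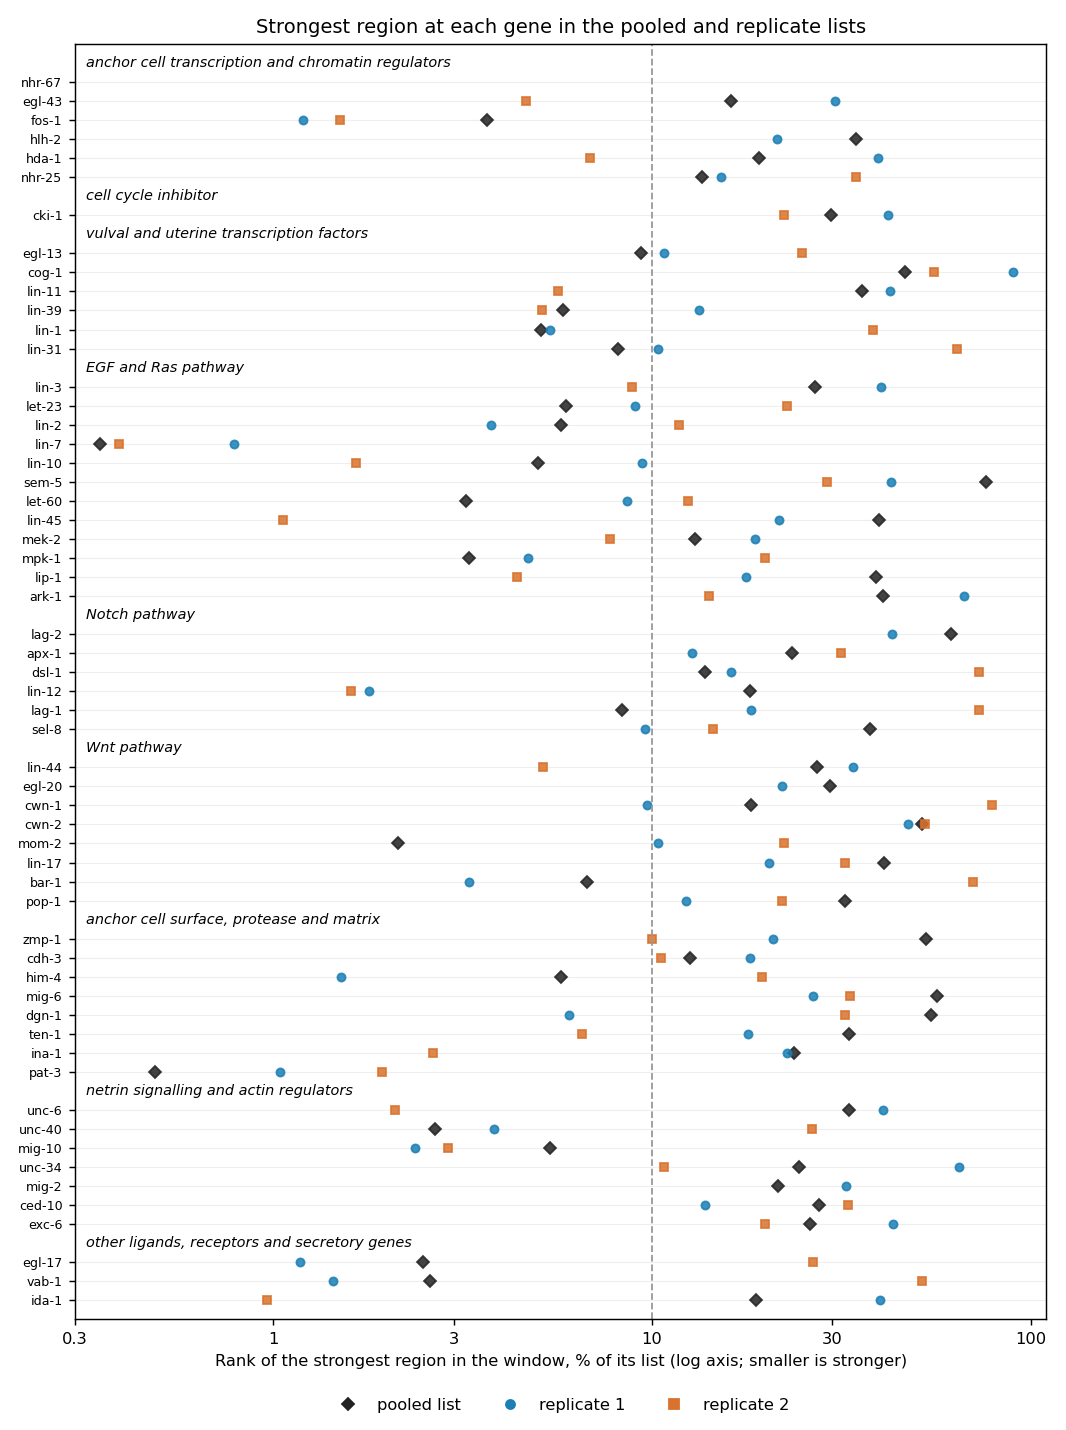
Rank of the strongest region in each gene's window as a percent of its list (log axis, smaller is stronger), in the pooled list (diamonds), replicate 1 (circles) and replicate 2 (squares), with genes grouped by role. The dashed line is the strongest 10%. A gene without a mark has no region in that list, as nhr-67 has in none of them, and lin-7 and pat-3 have all 3 marks far to the left.

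Of the 6 vulval and uterine transcription factor genes, 4 had strong pooled regions, where genes of like window length would give 1.96. In replicate 1 there was 1 such gene, where they would give 2.07, and in replicate 2 there were 2, where they would give 1.47. The 4 genes differed in which replicate was high. lin-1, the ETS factor downstream of Ras, had strong pooled regions in introns 19587 and 9393 bp from its start, at ranks 1533 and 1830 with signals of 14.9 and 14.4. Both were strong in replicate 1, at ranks 2449 and 1617, while its best rank in replicate 2 was 7450. At lin-31, the forkhead gene that acts beside it, an exonic region 1364 bp from the start ranked 2449 in the pooled list, and the best ranks were 3106 in replicate 1 and 12378 in replicate 2. egl-13, a SoxD gene of the uterine cells that contact the anchor cell, had a region 2830 bp upstream at rank 2815, just within the strongest 10%, which was strong in neither replicate. That summit lay nearer to the start of T22B7.22, 1040 bp away.

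lin-39, the Hox gene that makes vulval precursors competent, had strong pooled regions at an intron 507 bp from the start and 1700 bp upstream. The intronic region ranked 1746 in the pooled list and 3983 in replicate 1, with no region of replicate 2 over it. The upstream region ranked 2805 in the pooled list, 20912 in replicate 1 and 997 in replicate 2, where its summit, 1800 bp upstream, held the half-site printed above. The strong pooled regions of lin-39 thus ranked higher in different replicates. lin-11, the LIM homeobox gene of vulva and uterus, had no strong pooled region, with a best rank of 10737 in an intron 3887 bp from its start. That region held AAGTCA. A strong replicate 2 region overlapped it, with its summit 3906 bp from the start, at rank 1095 with a signal of 6.65, and held the same site. cog-1, a homeobox gene of the vulva, had best ranks of 14020, 26958 and 10755 in the pooled, replicate 1 and replicate 2 lists, the replicate 1 rank being the weakest of any of the 57 genes with a region in that list.

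Of the 12 EGF and Ras pathway genes, 6 had strong pooled regions, against 3.67 in genes of like window length, and lin-7 had the strongest of all. lin-7 encodes a PDZ protein that, with LIN-2 and LIN-10, keeps LET-23 on the basolateral face of the vulval precursors. Its region at chrII:14349604-14349859 had a pooled signal of 31.0 at rank 105, a signal of 19.9 at rank 237 in replicate 1 and of 12.6 at rank 76 in replicate 2. It was the only optimal peak in any of the 57 windows. Its summit lay 326 bp upstream of lin-7 and 6 bp from the start of elof-1, the neighbouring gene, so the assignment to lin-7 rests on the window and not on the nearest start. Summits of the replicates lay 12 bp apart.

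lin-10 and lin-2, the partners of lin-7, had strong pooled regions at rank 1499 in an exon 90 bp from the lin-10 start and at rank 1724 in an intron 10309 bp from the lin-2 start. Both were strong in replicate 1, at ranks 2825 and 1131, and overlapped no replicate 2 region. Elsewhere in its window, lin-10 had a strong replicate 2 region, at rank 322 with a signal of 8.56. let-60, the Ras gene, had a region in its 3′ untranslated part at rank 972 in the pooled list, 2587 in replicate 1 and 6897 in replicate 2. mpk-1, the ERK gene, had an intronic region at rank 988 with a signal of 16.5, at rank 1409 in replicate 1 and 3864 in replicate 2. Its window held 9 pooled regions, against a median of 5 in genes of like window length. let-23, the EGF receptor gene, had an intronic region at rank 1778, 2708 in replicate 1 and 4399 in replicate 2. All 3 regions were strong in replicate 1 and outside the strongest 10% in replicate 2.

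lin-3, whose product is the inductive signal from the anchor cell, had 8 pooled regions against a median of 5, but its best pooled rank was 8096, with a signal of 9.74 in an intron 1773 bp from the start. Replicate 1 ranked best at 12068, and the strong replicate 2 region, at rank 1720 with a signal of 5.95, lay in the 3′ untranslated region, nearer to the start of ttr-16. No region at lin-3 was strong in more than 1 list. mek-2, the MAP kinase kinase gene, had 2 AAGTCA sites in an intronic region at rank 6591 in the pooled list and 1501 in replicate 2, where it was strong. Among the remaining pathway genes, lin-45 (Raf) and lip-1 (a phosphatase of MAP kinase) had strong regions in replicate 2 alone, at ranks 205 and 855, and sem-5 and ark-1 had none.

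Notch pathway genes were mostly without strong pooled regions, at 1 of 6 genes against 1.98 in genes of like window length. That gene was lag-1, encoding the DNA-binding effector of Notch, with an intronic region 1865 bp from the start at rank 2495, and at 7899 in replicate 1 and 14177 in replicate 2. lag-2, the ligand gene of the anchor cell, had 2 pooled regions, 4323 and 4798 bp upstream, the better at rank 18454 with a signal of 7.0. It had 2 regions in replicate 1 with a best rank of 12904, and 0 in replicate 2. dsl-1, another ligand gene, had 1 pooled region, 4097 bp upstream at rank 4147 with a signal of 11.8, carrying the half-sites printed above, and a region at rank 4859 in replicate 1. sel-8, a Mastermind-like coactivator gene, was strong in replicate 1 alone, at rank 2884, and apx-1, a ligand gene, was strong in no list.

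lin-12, the Notch receptor gene used in the choice between anchor cell and ventral uterine fates, had 10 pooled regions, 8 in replicate 1 and 6 in replicate 2, and 7.33% of genes of like window length had as many pooled regions. None was strong in the pooled list, the best ranking 5456 with a signal of 10.9. In each replicate alone it had strong regions, but 4677 bp apart at the nearest. Replicate 1 had an intronic region 4329 bp from the start at rank 537 with a signal of 16.3. Replicate 2 had upstream regions at 348 bp, with a signal of 8.60 at rank 313, and at 1261 bp, with 7.13 at rank 792. As at fos-1, both replicates were high in the window and at different places in it.

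**Figure D2:**
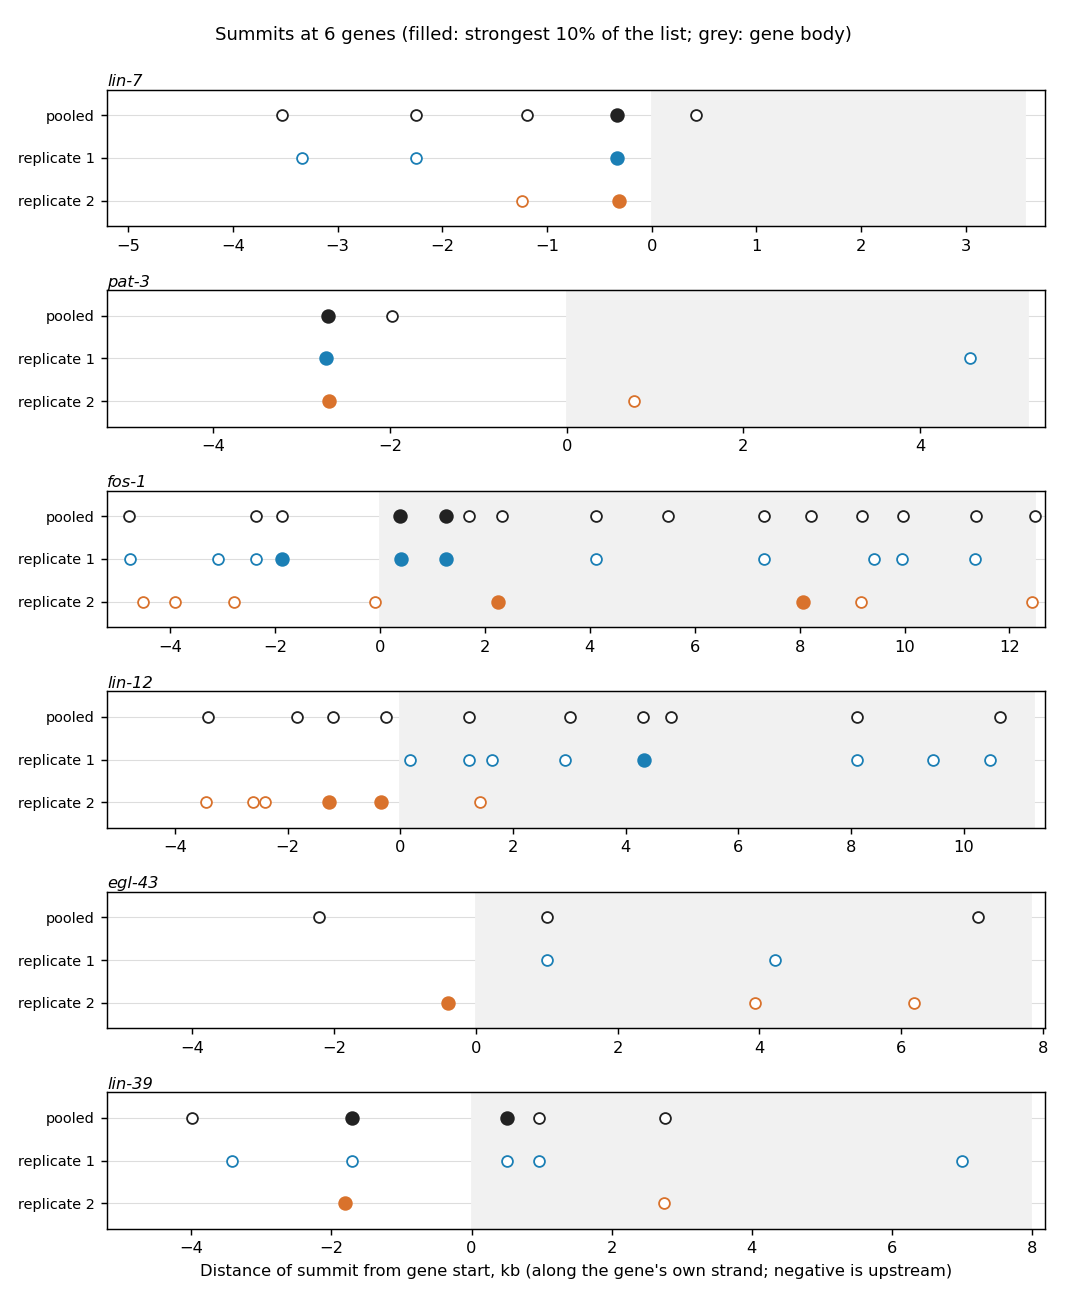
Summits in the windows of 6 genes, by distance from the gene start along the gene's own strand (kb, negative is upstream), in the pooled list and both replicates. Filled circles are among the strongest 10% of their list and the grey area is the gene body. Filled summits of all 3 lists line up at lin-7 and pat-3. Those of the replicates lie apart at fos-1 and lin-12, and at egl-43 and lin-39 replicate 1 has none.

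Of the 8 Wnt pathway genes, mom-2 and bar-1 had strong pooled regions, against 2.08 in genes of like window length. mom-2, a Wnt gene, had a region 2085 bp upstream with a signal of 18.2 at rank 641, the highest after lin-7 and pat-3. It ranked 3107 in replicate 1 and 11484 in replicate 2, so it was strong in neither. bar-1, the beta-catenin gene of the vulval Wnt response, had a region 272 bp upstream at rank 2020 in the pooled list and at rank 991 in replicate 1 with a signal of 14.3, without a replicate 2 region over it. egl-20, another Wnt gene, had 6 pooled regions, a count reached by 4.67% of genes of like window length, and 5 in replicate 1, but 0 in replicate 2. lin-17, a Frizzled receptor gene, had 2 AAGTCA sites at an upstream summit of low rank, 22581. The Wnt genes cwn-1 and lin-44 were each strong in 1 replicate alone, cwn-1 at rank 2914 in replicate 1 and lin-44 at rank 1000 in replicate 2, and cwn-2 and pop-1 (TCF) in no list.

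Anchor cell surface, protease and matrix genes had strong pooled regions at 2 of 8 genes, against 3.1 in genes of like window length. pat-3, the beta integrin gene, had its strong region at chrIII:3916719-3916974, with a pooled signal of 27.2 at rank 146, a signal of 18.6 at rank 313 in replicate 1 and of 8.28 at rank 377 in replicate 2. The replicate summits lay 28 bp apart. The lowest signal of an optimal peak was 27.9, just above this region, which was not among the optimal peaks. Its summit was 2698 bp upstream of pat-3 and 120 bp from the start of ccdc-47, so here too another gene's start was nearer.

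him-4, which encodes the matrix protein hemicentin, had the longest window, 41200 bp, with 11 pooled regions against a median of 9. The genes behind that median had windows of 21696 to 60184 bp, as few genes are so long. In the 3 other genes with windows of 41 kb the median was 13. Strong pooled regions lay in introns 20652 and 26103 bp from its start, with signals of 14.5 and 13.9 at ranks 1725 and 2146. They ranked 2454 and 453 in replicate 1. No replicate 2 region lay over the nearer of them, and the farther ranked 9267 in replicate 2, so neither was strong there. Of its 11 pooled regions, 4 held AAGTCA near the summit, against 4.34% of regions in other windows, a difference that was not tested. The 4 were the region printed above and weaker ones at ranks 10281, 23546 and 24903.

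zmp-1, a matrix metalloproteinase gene and a classic anchor cell marker, had a best pooled rank of 15867, 4311 bp upstream, and a best rank of 6268 in replicate 1. In replicate 2 a region 819 bp upstream had a signal of 5.78 at rank 1936, barely within the strongest 10%, which ended at rank 1938. cdh-3, the Fat-like cadherin gene also used as an anchor cell marker, had its best pooled region 4138 bp upstream at rank 3782, nearer to the start of pcp-1, with best ranks of 5471 in replicate 1 and 2058 in replicate 2. It was outside the strongest 10% in every list. Of the other genes in this class, ina-1 (alpha integrin) and ten-1 (teneurin) were strong in replicate 2 alone and dgn-1 (dystroglycan) in replicate 1 alone, while mig-6 (papilin) was strong in no list.

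Of the 7 netrin and actin genes, 2 had strong pooled regions, against 2.39 in genes of like window length. unc-40, the netrin receptor gene, had a region 50 bp upstream of its start with a signal of 17.2 at rank 802. It ranked 5686 in replicate 1 and was overlapped by no replicate 2 region, and the strong region of unc-40 in replicate 1 was another, in an intron 9983 bp from the start at rank 1145. mig-10, the lamellipodin gene, had an intronic region at rank 1618 in the pooled list and 711 in replicate 1, without a replicate 2 region over it. Replicate 2 had strong mig-10 regions in other introns, at ranks 562 and 685. mig-10 also held AAGTCA at 2 weaker pooled summits, at ranks 8875 and 21754. unc-6, the netrin gene, was strong in replicate 2 alone, with regions at ranks 408 and 1888, and unc-34, mig-2, ced-10 and exc-6 had no strong region in any of the lists.

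Of the 3 remaining ligand, receptor and secretory genes, 2 had strong pooled regions, against 1.04 in genes of like window length. egl-17, the FGF gene expressed in vulval cells, had an intronic region 266 bp from its start with a signal of 17.5 at rank 746, at rank 354 in replicate 1 and 5149 in replicate 2. vab-1, the Eph receptor gene, had an exonic region at rank 780 in the pooled list and 432 in replicate 1, with none of replicate 2 over it. ida-1, a dense-core vesicle gene used as a marker of vulval and neurosecretory cells, was strong in replicate 2 alone, in an intron 3382 bp from the start with a signal of 9.74 at rank 187. The best pooled rank of ida-1 was 5634.

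Counted over the list, 1 of the 57 genes had an optimal peak (1.75%), against a mean of 1.54% in genes of like window length and 1.1% of the 19916 other protein-coding genes. Strong pooled regions were present at 20 of 57 genes (35.1%), against 31.8% in genes of like window length and 21.6% of other genes. In replicate 1 there were 19 genes (33.3%), against 31.9% in genes of like window length and 21.8% of other genes. These shares were near those of genes with similar windows. In replicate 2 there were 20 genes (35.1%), against 21.6% in genes of like window length, which would give 12.3 of 57 genes, and 14.4% of other genes. No test was made, since the genes were named with results of these data known. Leaving aside the 10 genes on X, the replicate 2 share was 40.4% against 21.6% in genes of like window length.

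Of the 20 genes with a strong region in replicate 2, 6 also had one in replicate 1. Strong regions of both replicates lay in the windows of these 6 genes, fos-1, lin-7, lin-10, lin-12, pat-3 and mig-10, which is 10.5% of the 57, against 9.47% in genes of like window length and 5.19% of other genes. Strong regions of replicate 1 alone lay in 13 windows (22.8%), against 22.4% in genes of like window length, and of replicate 2 alone in 14 (24.6%), against 12.1%. In 24 windows (42.1%) neither replicate had one, against 56.0%. At lin-7 and pat-3 alone did the strong regions overlap each other and a strong pooled region, which is 3.51% of the 57 genes, against 2.73% in genes of like window length and 1.99% of other genes. By chromosome, strong replicate 2 regions were present at 8 of 12 genes on III, where genes of like window length from all chromosomes would give 3.01, and at 4 of 8 on I, where they would give 1.75. They were present at 2 of 8 on II, 3 of 12 on IV and 2 of 7 on V, where genes of like window length would give 1.61, 2.32 and 1.48, and at 1 of 10 on X, where they would give 2.13.

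**Figure D3:**
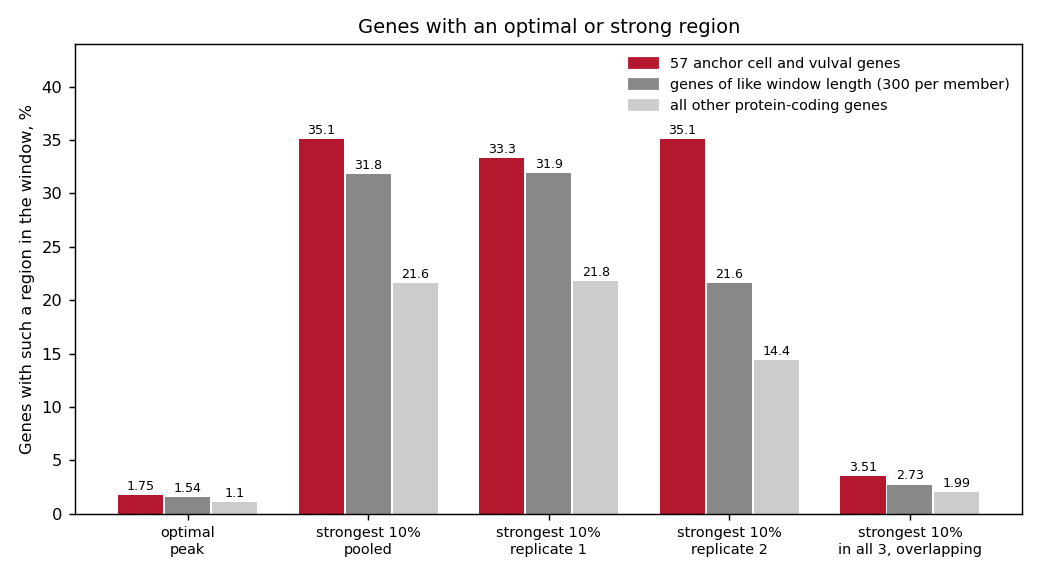
Percent of genes with an optimal peak or a strong region in the window, for the 57 genes, for genes of like window length (mean over the 300 taken for each) and for all other protein-coding genes. The bars have no replicate error, as each is a count in 1 list. The 57 genes and those of like window length are close in all sets but replicate 2, at 35.1% and 21.6%.

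Window length bears on these counts. The 57 windows had a median length of 12836 bp, from 5863 bp at dsl-1 to 41200 bp at him-4, against 7022 bp for other genes. They held a median of 4 pooled regions, from 0 at nhr-67 to 15 at fos-1, against 2 at other genes, and per 10 kb of window a median of 3.19 against 2.88. Per 10 kb, replicate 1 had medians of 3.43 against 2.95, and replicate 2 of 1.99 against 1.62. Of the 57 genes, 38 (66.7%) had at least the median pooled count of genes of like window length, against 61.6% of other genes.

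**Figure D4:**
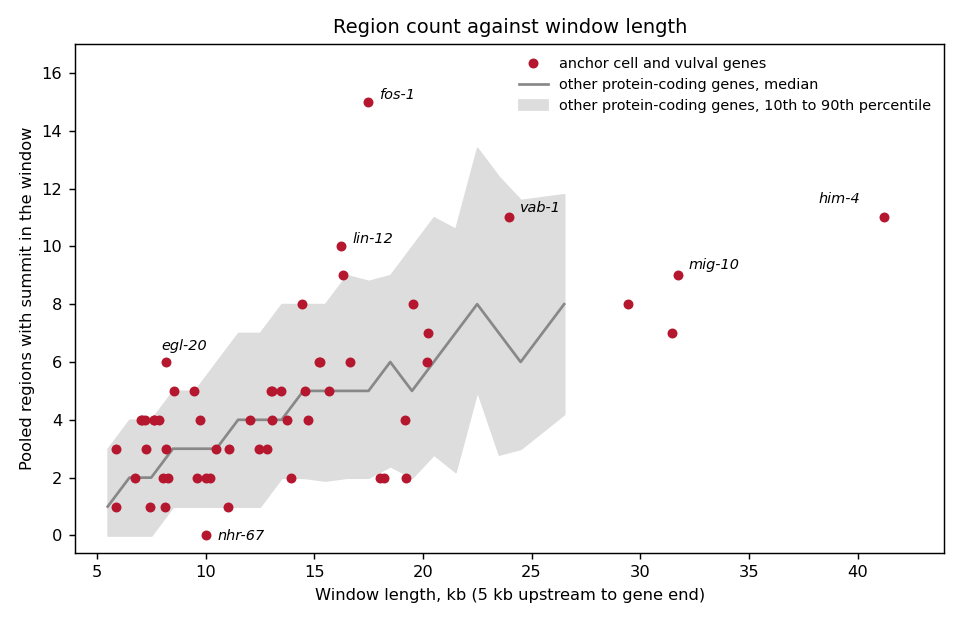
Pooled regions in the window against window length (kb) for the 57 genes (points), with the median (line) and the 10th to 90th percentile (grey) of other protein-coding genes in bins of window length. fos-1 lies above the grey area with 15 regions, as lin-12 does with 10 and egl-20 with 6, and nhr-67 lies at 0.

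The 261 distinct pooled regions in these windows were set beside the 27588 regions that lay only in the windows of other genes. Upstream sequence held 39.1% of them, introns 42.9% and exons 18.0%, against 36.3%, 42.0% and 21.7% of the bases in the windows. For 69.3% of them the gene itself had the nearest protein-coding start, as it had for 17 of the 24 strong ones. A replicate 1 region overlapped 64.4% of them, against 66.9% in other windows, and a replicate 2 region 27.6% against 27.0%. Both replicates overlapped 29 of 261 regions (11.1%, exact 95% interval 7.57 to 15.6), against 13.6% in other windows. Summits within 500 bp of a protein-coding start were 24.5% of the regions against 29.3%, and the median GC content was 35.6% against 34.7%.

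AAGTCA lay within 50 bp of the summit in 12 of 261 pooled regions (4.60%, exact 95% interval 2.40 to 7.89), against 4.34% in other windows and 4.36% of all 29970 nuclear pooled regions. In replicate 1 there were 10 of 264 regions (3.79%, exact 95% interval 1.83 to 6.86), against 4.38% in other windows, and in replicate 2 there were 12 of 184 (6.52%, exact 95% interval 3.41 to 11.1), against 4.36%. Each interval holds the share of other windows. The 12 pooled regions belonged to egl-43, fos-1, lin-11, mek-2, dsl-1, lin-17, him-4 and mig-10, and only the him-4 region printed above was strong. CTGCGC lay near the summit of 7 of the 261 pooled regions (2.68%, exact 95% interval 1.08 to 5.45), against 1.40% of all nuclear regions. Of the 24 strong ones it was near 4 (16.7%, exact 95% interval 4.74 to 37.4), at lin-7, pat-3, mpk-1 and him-4, against 2.83% of the 2970 strong nuclear regions. The hexamer was chosen with its values in these data known, so its intervals are descriptive and test nothing. It occurred in 22 of the 203 nuclear regions that were strong in the pooled list and both replicates (10.8%), and AAGTCA in 4 of them (1.97%). The lin-7 and pat-3 regions are among the 203. A match is a description of the letters and no evidence of a bound site.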

How the data were processed

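ChIP-seq of GFP-tagged NHR-67 in whole L3 larvae gave 2 biological replicates, labelled as such. The authors deposited for ce11 a pooled list, a list per replicate and the optimal list, called against 1 control, as the deposited text records state. Aligner and peak caller: not given in the sources used here. Each deposited list gives a signal value, the −log10 of a q-value, which was tied over many strong regions and not used to rank them, and a summit offset, the other value the authors deposited. The ce10 lists were not used here. No columns beyond these were used (0). The files give no read counts, so depth is unknown.

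Genes were located in the Ensembl 115 annotation of WBcel235, the assembly of ce11, and 0 regions ran past a chromosome end. Coordinates are 1-based. A summit is the region's start plus the offset. Ranks count all regions of a list, mitochondrial ones included. Overlap means at least 1 shared bp. Sequence was read from the RefSeq WBcel235 genome. A gene was set beside the 300 other nuclear protein-coding genes nearest in window length. For the longest windows these differ widely in length, as at mig-10, where they ran from 21442 to 41738 bp. Shorter windows are the more common in such a range, with 43 other genes at 21 kb and 11 at 31 kb. The values given by genes of like window length may thus be too low for the longest windows. At lin-1 their median was 8 pooled regions, against 11 in other genes with windows of 29 kb. Exact (Clopper-Pearson) 95% intervals cover counting error over regions only, and neighbouring regions are not independent. No test was made over the list. Counting was checked on simulated data. Python 3.11.15, pandas 2.3.3, numpy 2.4.6, scipy 1.17.1 and matplotlib 3.10.9 were used.

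The 57 genes, the other pathway genes and the settings were chosen with earlier results of these data known. Values were given for genes with an optimal peak or a strong pooled region (at most 15 by rank), the anchor cell, cell cycle, vulval and uterine regulators, genes with AAGTCA at a pooled summit or no pooled region, and lin-3, lag-2, lin-12, zmp-1, cdh-3 and him-4. Others named, with lower-ranked strong pooled regions, strong regions in a replicate only, a count of regions or no strong region, were chosen after their values were seen. Alternatives were other windows, thresholds for strong, overlap rules and motif distances, the nearest-start rule, autosomes only, and either replicate alone.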

Additional observations from a re-analysis of the deposited data

How the results depend on the processing

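Of 54 alternatives, 42 left the count within 1.5 times or the share within its interval. With windows from 2 kb upstream, 1 gene, lin-7, had strong regions overlapping in all 3 lists, and with windows from 10 kb upstream 4 genes had them (lin-7, pat-3, lin-45 and unc-40), and 2 had an optimal peak (lin-7 and lin-45). Counting only regions whose nearest protein-coding start was the gene's own, 0 genes had an optimal peak, 0 had overlapping strong regions and 12 had a strong replicate 2 region (21.1%, against 13.1% in genes of like window length). By that rule 14 genes had a strong pooled region (24.6%, against 20.7%). With strong set at 5%, 10 genes had a strong pooled region (17.5%, against 17.3% in genes of like window length), 12 a strong replicate 1 region (21.1%, against 18.0%) and 12 a strong replicate 2 region (21.1%, against 11.5%). With strong set at 20%, 33 had a strong replicate 1 region (57.9%, against 52.3%). The settings for the replicate lists were chosen after seeing the data, and in all 6 the replicate 2 share stayed above that of genes of like window length. All 6 use the same replicate 2 list in which the difference had been seen, so they are not separate support for it. Overlap of at least 50% of the shorter region left 6.51% of pooled regions shared with both replicates, and AAGTCA within 100 bp gave 8.05%, against 9.05% in other windows. With either replicate left out, 19 to 20 genes had a strong region, 38 to 48 had at least the median count, and 3.79 to 6.52% of regions held AAGTCA. All 3 upper ends came from replicate 2 alone. The count of 48 there is 84.2%, against 66.7% of other genes, and that of 38 in replicate 1 is 66.7%, against 60.5%. No paired analysis was possible because there is 1 group. With 2 replicates, no read counts and whole larvae, the absence of a region at a gene says only that none was listed.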

Other observations

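The same pathways hold 65 further genes that were counted in the same way. Of these, 25 (38.5%) had a strong pooled region, against 31.2% in genes of like window length. In replicate 1 there were 16 (24.6%), against 31.5%, and in replicate 2 there were 13 of 65, against 21.1%. None of the 65 had an optimal peak, and at none did strong regions of all 3 lists overlap, where genes of like window length would give 0.953 and 1.73 of 65. The 57 genes had 20 with a strong replicate 2 region, and the difference between the 57 and the 65 genes was not tested. By role, strong pooled regions were present at 7 of 13 Wnt pathway genes (among them sys-1, a beta-catenin gene), at 6 of 14 EGF and Ras pathway genes and at 1 of 10 Notch pathway genes, where genes of like window length would give 4.0, 4.69 and 2.1. They were present at 4 of 11 vulval and uterine transcription factor genes, 4 of 10 surface, protease and matrix genes and 3 of 7 netrin and actin genes, where genes of like window length would give 3.18, 3.8 and 2.52. The highest ranks belonged to sem-4, a zinc finger gene of vulval and other fates, at 229, and wsp-1, an actin regulator, at 247. After them came sur-6 (a phosphatase subunit of the Ras pathway) at 428, unc-73 (Trio) at 478 and mab-5 (Hox) at 555. The summits at sem-4 and mab-5 lay nearer to the starts of W01A8.8 and bath-15. The strong pooled region counted for sys-1 lay 4200 bp upstream of it and 138 bp from the start of his-68.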
